A study of Homo sapiens with 6 samples.

Results

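The genes described here encode apolipoproteins, the proteins on the surface of lipoprotein particles, together with MTTP, the microsomal triglyceride transfer protein. They were chosen by name: every gene in the authors' deposited table whose symbol is APO followed by a letter from A to M and an optional number, plus MTTP. This gave 11 of the 1998 genes in the table: APOA1, APOA2, APOB, APOC1, APOC3, APOF, APOH, APOL2, APOL6, APOM and MTTP. The table holds only genes that the authors called as changed, so every gene in it had already passed the authors' adjusted p threshold, and apolipoprotein genes outside it were not analysed here.

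The cells were HepG2, a human liver cancer line that secretes many plasma proteins. They had been transfected with a control siRNA (siCon) or with an siRNA against H19 (siH19), a long noncoding RNA from an imprinted locus, and were harvested 48 h later. Each group had 3 libraries of ribosome-depleted total RNA, which the authors combined into a single value per gene, so the spread between libraries is known only through their standard error (SE). The labels do not say if the libraries were grown as independent cultures, so the SE and adjusted p may measure technical spread only. H19 itself was not analysed here, and the extent of its knockdown was therefore not checked. Depth per library is unknown.

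Hepatocytes export triglyceride and cholesterol in very low density lipoproteins, which are built on APOB. MTTP, working as a complex with protein disulfide isomerase, moves lipid onto APOB as it enters the endoplasmic reticulum, and APOB that receives too little lipid is degraded. APOA1 and APOA2 are the main proteins of high density lipoproteins (HDL), while other apolipoproteins such as APOC1, APOC3 and APOM sit on particles and act on lipases, on uptake or on the lipids carried. HNF4A, a nuclear receptor of the liver, is a well-known regulator of many of these genes.

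All 11 genes were lower in siH19 than in siCon in the authors' deposited table, as were 55.3% of all 1998 listed genes. The falls ran from APOM (a log2 fold change of -1.08 ± 0.11, authors' SE) to APOA1 (-0.33 ± 0.10) in the authors' deposited table, a 2.11-fold and a 1.26-fold fall. Their median log2 fold change was -0.63, beside -0.27 over all listed genes and -0.44 over the 1105 listed genes that were lower. Of the 11 genes, 6 fell at least 1.5-fold, beside 15.6% of all listed genes, and 1, APOM, fell at least 2-fold, beside 2.4%. At a stricter adjusted p of under 0.01, 9 of the 11 were still called lower, beside 36.6% of the listed genes. The shares of 15.6%, 2.4% and 36.6% have the 893 higher genes in their base, which makes them low for a comparison with lower genes. Among the 1105 lower genes, 311 fell at least 1.5-fold, 48 fell at least 2-fold and 732 passed the stricter adjusted p. All of these genes had been called before they could be counted, so the shares describe the table and are no test.

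**Figure D1:**
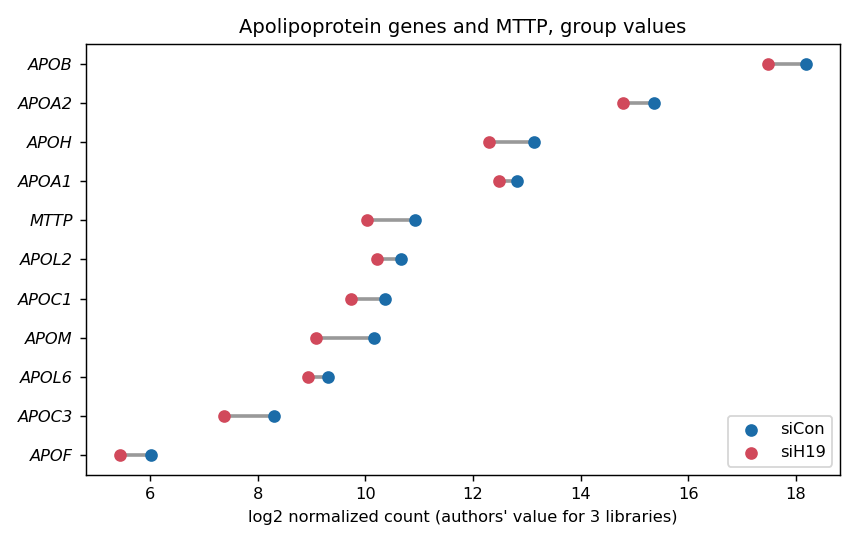
Log2 normalized count of each gene in the control (siCon, blue) and H19 siRNA (siH19, red) groups, as given by the authors for 3 libraries per group, with genes ordered by their control level. Every red point lies to the left of its blue point, from APOF at 6.02 and 5.44 to APOB at 18.19 and 17.48; no error bars are drawn because the table gives none for group levels.

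Promoter sequence is shown for MTTP, APOM and APOA2, whose start-site windows held a match to the motifs searched. RefSeq windows on build GRCh38.p14, running from 250 bases before to 50 bases after a start site, were matched for 5 of the 11 genes (APOA2, APOC1, APOH, APOM and MTTP). They came to 6 windows because MTTP has 2 starts. The motifs were chosen after these sequences had been seen and were searched on both strands. A direct repeat bound by nuclear receptors such as HNF4 was searched as GGTCA, any 2 bases, then GGTC. The other motifs were the HNF4 letters CAAAGTCCA, the nuclear receptor core AGGTCA, the forkhead letters TGTTTAC and the C/EBP palindrome TTGCGCAA. The core shares letters with the direct repeat, so a window can match both. Capitals mark the matches, and the strand shown is that of the gene.
MTTP, downstream start, chr4:99574574-99574873, plus strand: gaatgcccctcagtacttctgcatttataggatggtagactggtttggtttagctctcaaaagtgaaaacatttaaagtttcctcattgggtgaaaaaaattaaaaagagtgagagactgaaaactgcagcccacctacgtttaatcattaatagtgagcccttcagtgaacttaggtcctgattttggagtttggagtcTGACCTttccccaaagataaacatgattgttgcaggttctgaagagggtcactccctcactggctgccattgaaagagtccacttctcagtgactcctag
APOM, chr6:31655644-31655943, plus strand: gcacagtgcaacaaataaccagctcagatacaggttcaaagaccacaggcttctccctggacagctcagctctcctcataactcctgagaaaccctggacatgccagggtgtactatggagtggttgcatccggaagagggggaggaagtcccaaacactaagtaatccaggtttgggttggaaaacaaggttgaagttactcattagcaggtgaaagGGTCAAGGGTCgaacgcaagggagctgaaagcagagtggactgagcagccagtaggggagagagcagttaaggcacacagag
APOA2, chr1:161223579-161223878, minus strand: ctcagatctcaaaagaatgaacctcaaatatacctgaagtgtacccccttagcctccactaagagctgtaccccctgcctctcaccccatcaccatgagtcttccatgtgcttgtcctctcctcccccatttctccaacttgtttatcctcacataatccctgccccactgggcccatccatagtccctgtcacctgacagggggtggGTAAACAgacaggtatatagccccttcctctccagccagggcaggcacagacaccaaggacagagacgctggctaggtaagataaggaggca

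In the window of the downstream MTTP start the core AGGTCA lay on the opposite strand 50 bases before the start, where it reads TGACCT. This core was held by 13.8% of 35116 RefSeq windows of the same length, and by 10.8% of the windows of listed genes that were lower. The APOM window held the direct repeat 32 bases before its start, and 0.262% of all windows, or 0.402% of those of lower genes, held that repeat. In APOA2 the forkhead letters lay on the opposite strand 42 bases before the start, and 3.42% of windows, or 2.89% of those of lower genes, held them. The windows of APOC1, of APOH and of the upstream MTTP start held none of the letters searched, and none of the 6 windows held CAAAGTCCA or TTGCGCAA, which 0.384% and 0.151% of all windows and 1.05% and 0.241% of those of lower genes held. A match is a stretch of letters and not a measured binding site, and a count per gene does not tell which MTTP start was used.

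APOB and MTTP, which act together at the first step of particle assembly, both fell. APOB, on chromosome 2, encodes the scaffold that stays with a particle until it is cleared. Its log2 normalized count was 18.19 in siCon and 17.48 in siH19 in the authors' deposited table, or about 299044 and 182812 normalized counts. The log2 fold change of APOB in the authors' deposited table was -0.70 ± 0.09, a fall to 61.6% of the control level. For MTTP, on chromosome 4, the authors' deposited table gave log2 counts of 10.92 and 10.04, or 1938 and 1053 normalized counts. The MTTP log2 fold change in the authors' deposited table was -0.88 ± 0.09 (1.84-fold lower). MTTP thus had the lower point estimate, but the difference between APOB and MTTP was -0.18 on the log2 scale (MTTP minus APOB) with a combined SE of 0.13, within 2 combined SE. Combined SEs here treat the SEs of both genes as independent, which the table cannot check.

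APOB made up a large part of the RNA that was lower in siH19. It held 8.57% of the normalized counts summed over all listed genes in siCon and 5.94% in siH19. The 1105 lower genes together fell by 697104 normalized counts, of which APOB was 16.7% and the 11 genes together 19.8%. Summed over the 11 genes, normalized counts were 364593 in siCon and 226243 in siH19, 1.61-fold lower. Without APOB the sums were 65548 and 43431, 1.51-fold lower, with APOA2 as the largest term. A long transcript weighs more in these sums, which are not scaled by length.

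Small apolipoproteins of triglyceride-rich particles fell as well. APOC3 inhibits lipoprotein lipase and slows the clearance of these particles. In the authors' deposited table APOC3 had log2 counts of 8.31 in siCon and 7.38 in siH19, or 317 and 167 normalized counts, and a log2 fold change of -0.92 ± 0.13 (1.89-fold lower). APOC1 inhibits cholesteryl ester transfer protein and hinders the uptake of particles. For APOC1 the authors' deposited table gave log2 counts of 10.37 and 9.74 (1323 and 855 normalized counts) and a log2 fold change of -0.63 ± 0.11. APOC3 minus APOC1 was -0.29 on the log2 scale with a combined SE of 0.17, again within 2 combined SE.

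The HDL proteins fell to unequal degrees, APOM most and APOA1 least. APOM is a lipocalin on chromosome 6 that carries the signalling lipid sphingosine 1-phosphate in HDL. Its log2 counts in the authors' deposited table were 10.17 and 9.09, or 1152 and 545 normalized counts, which left 47.3% of the control level and ranked 29 by size of fall among the 1105 lower genes. APOA1, the main HDL protein and the activator of cholesterol esterification in plasma, had log2 counts of 12.81 and 12.48 in the authors' deposited table, or 7181 and 5713 normalized counts. Its level in siH19 was 79.6% of control, with an adjusted p of 0.00522 in the authors' deposited table. APOM minus APOA1 was -0.75 on the log2 scale with a combined SE of 0.15, which is 5.05 combined SE and the widest gap among the 55 pairs of these genes by that measure.

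APOA2, the next most abundant HDL protein, lay between them. The authors' deposited table gave it log2 counts of 15.37 and 14.79, or 42348 and 28329 normalized counts, and a log2 fold change of -0.58 ± 0.07. APOA2 minus APOA1 was -0.25 with a combined SE of 0.12, just past 2 combined SE, a margin that rounding of the deposited values could remove. APOF, an inhibitor of cholesteryl ester transfer, had the same log2 fold change of -0.58 but a larger SE of 0.19 in the authors' deposited table. It was the gene with the lowest counts here, with 64.9 and 43.4 normalized counts and an adjusted p of 0.0228 in the authors' deposited table.

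Members of the family that are not core lipoprotein components also fell. APOH is beta-2-glycoprotein I, an abundant plasma protein that binds phospholipids and is a target of antiphospholipid antibodies. Its log2 counts in the authors' deposited table were 13.13 and 12.30, or 8964 and 5043 normalized counts, with a log2 fold change of -0.83 ± 0.08 (1.78-fold lower). APOL2 and APOL6, from a gene cluster on chromosome 22, belong to the APOL family, in which APOL1 is the secreted member that joins HDL. The authors' deposited table gave APOL2 1629 and 1193 normalized counts and a log2 fold change of -0.44 ± 0.08. For APOL6 the same authors' deposited table led to 630 and 491 normalized counts and a log2 fold change of -0.36 ± 0.12, with an adjusted p of 0.0228. APOL genes are similar in sequence, and how reads matching more than a single locus were counted was not given, so these values are uncertain.

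**Figure D2:**
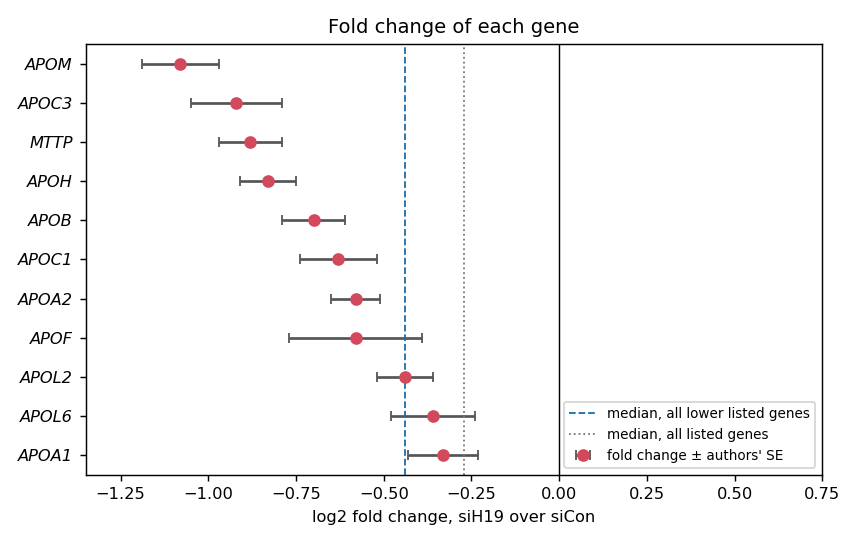
Log2 fold change of each gene, siH19 over siCon, with the authors' SE as bars; the dashed line marks the median of all lower listed genes (-0.44) and the dotted line that of all listed genes (-0.27). Points run from APOM at -1.08 to APOA1 at -0.33, and 8 of the 11 lie below the dashed line.

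In order of fall the genes were APOM, APOC3, MTTP, APOH, APOB, APOC1, APOA2 with APOF, APOL2, APOL6 and APOA1. No gene differed from its neighbour in this order by more than 2 combined SE over 10 neighbouring pairs. Of all 55 pairs 24 differed by more than 2 combined SE. APOM, APOC3, MTTP and APOH each lay that far below APOA2, APOL2, APOL6 and APOA1. APOM also lay that far below APOB, APOC1 and APOF. APOB lay that far below APOL2, APOL6 and APOA1, and the remaining cases were APOC1 and APOA2, each below APOA1. For APOC1 and APOA2 the gaps were 2.02 and 2.05 combined SE, close enough for rounding to move either. No allowance was made for the number of pairs.

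APOA1 and APOC3 are neighbours on chromosome 11, 2.7 kb apart by GENCODE release 29, in a cluster of apolipoprotein genes. Their changes were unequal: APOC3 minus APOA1 was -0.59 on the log2 scale with a combined SE of 0.16. The other listed gene within 100 kb of this pair, ZPR1, was higher, at 0.28 ± 0.09 in the authors' deposited table. The remaining listed neighbours within 100 kb of any of the 11 genes moved in either direction. CEP112 near APOH (0.43 ± 0.16), ADAMTS4 near APOA2 (0.90 ± 0.17), MYH9 near APOL2 (0.33 ± 0.11) and RBFOX2 near APOL6 (0.26 ± 0.10) were higher, and PAN2 near APOF (-0.45 ± 0.11) was lower in the authors' deposited table. Of these 6 neighbours outside the family 5 were higher and 1 was lower, beside 893 higher and 1105 lower among all 1998 listed genes. Only listed genes could be counted, and the directions of so few were not tested.

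Levels can be compared between genes only per length. The length used was that of the longest transcript among those ranked best as principal in GENCODE release 29. Which transcripts the cells used is not known, and another length could change the order of close genes such as APOH and APOA1. In siCon, APOA2 stood highest at 89300 normalized counts per kilobase, on a transcript of 474 nt, followed by APOB at 21200, on 14121 nt. APOH (7620), APOA1 (5850), APOC1 (1920) and APOM (973 normalized counts per kilobase) came next. APOL2 (607), APOC3 (577), MTTP (473), APOL6 (62.3) and APOF (37.8 normalized counts per kilobase) made up the lower end. In siH19 the order was the same except that APOA1 (4660 normalized counts per kilobase) stood above APOH (4290). The table gives no spread for group levels. The SEs of the log2 fold changes do not measure uncertainty in level between genes, so the steps in this order were not tested.

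Counting error was below the deposited SE for all 11 genes, but by very unequal factors. With 3 libraries per group, and taking the normalized counts as if they were reads, counting alone would give an SE of 0.0025 for APOB on the log2 scale, and the deposited SE was 36.4 times as large. For APOA2 the factor was 10.9, for MTTP 2.82, for APOM 2.54, for APOL2 2.52, for APOL6 2.39 and for APOC3 1.63. For APOF counting alone would give 0.163, close to its deposited SE of 0.19. Whether the authors' SEs and fold changes were moderated across genes was not given. The deposited and the counting SE may therefore be unlike quantities, and the factors are rough.

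Some of these genes share their position with others in the annotation, which bears on counting. APOM overlaps BAG6, MTTP overlaps TRMT10A and an antisense transcript, and APOA1 overlaps APOA1-AS, all on the opposite strand. APOB and APOC1 each overlap a transcript of the annotation's provisional TEC class, on the opposite strand for APOB and on the same strand for APOC1. None of the overlapping genes was in the table. The libraries kept strand, but whether counting used it was not given, so reads of these pairs may not be told apart. For APOC1 strand could not tell them apart in any case. The other 6 genes (APOA2, APOC3, APOF, APOH, APOL2 and APOL6) overlap no annotated gene.

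**Figure D3:**
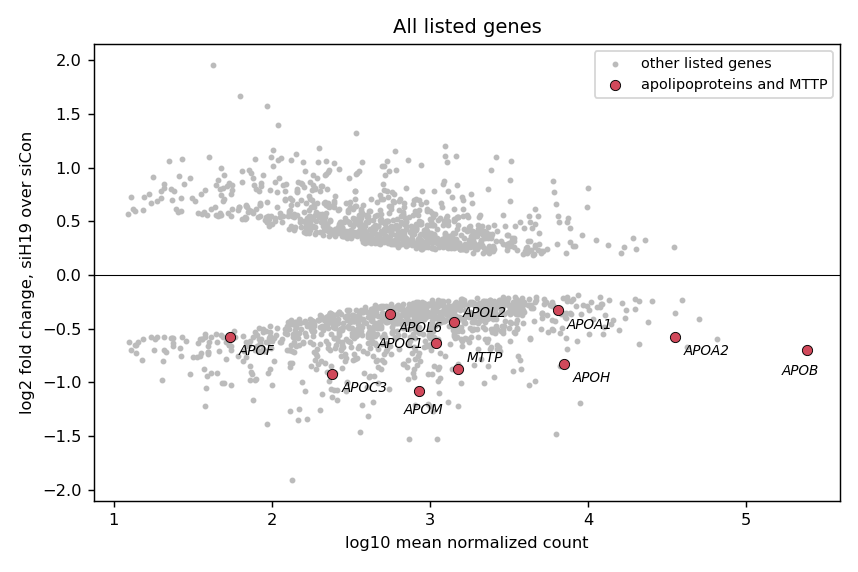
Log2 fold change, siH19 over siCon, against log10 mean normalized count for all 1998 listed genes (grey) and the 11 genes described here (red, named). The 11 genes span mean counts from 54.2 for APOF to 240657 for APOB, and all lie below 0; the empty band around 0 is where genes were not called.

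Of 47 symbols for genes that fold and export APOB particles, 18 were listed as called. Of these 17 were lower and 1 was higher, beside 55.3% lower among all listed genes. Their median log2 fold change was -0.36, beside -0.27 over all listed genes. The share of all measured genes that was listed is unknown, so the number listed from this and the following lists has no baseline. SMLR1, a small membrane protein required for export of very low density lipoprotein, fell by 1.27 ± 0.11 on the log2 scale in the authors' deposited table, from 1479 to 613 normalized counts. CIDEB, a lipid droplet protein that aids lipidation of these particles, was at -0.86 ± 0.15 in the authors' deposited table. SEC24D, a subunit of the COPII coat that carries cargo out of the endoplasmic reticulum, and PLA2G12B, a secreted phospholipase-like protein needed for full lipidation of APOB, were at -0.57 ± 0.10 and -0.53 ± 0.17 in the authors' deposited table.

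The member of that list which was higher was SAR1B, the GTPase that starts COPII budding and whose loss causes chylomicron retention disease. It stood at 0.41 ± 0.15 in the authors' deposited table (680 and 910 normalized counts), with an adjusted p of 0.0472, close to the authors' threshold. Its paralog SAR1A was at -0.20 ± 0.07 (adjusted p = 0.0436) in the authors' deposited table. SURF4, a cargo receptor for lipoproteins, was at -0.34 ± 0.12 and the export factor MIA2 at -0.49 ± 0.11 in the authors' deposited table. The endoplasmic reticulum chaperones CANX (-0.40 ± 0.08), HSP90B1 (-0.33 ± 0.12) and HSPA5 (-0.30 ± 0.10) were lower too in the authors' deposited table. SAR1A, SURF4, MIA2 and the chaperones were named after their values had been seen.

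Of 50 symbols for genes that supply lipid to the particle, 19 were listed, with a median of -0.42. Of these 16 were lower and 3 were higher, beside 55.3% lower among all listed genes. FABP1, the fatty acid binding protein of liver (-1.02 ± 0.21), and CIDEC, a lipid droplet protein (-0.97 ± 0.19), fell most in the authors' deposited table. GPAM, which starts glycerolipid synthesis, and SOAT2, which esterifies cholesterol for packaging into APOB particles, followed at -0.83 ± 0.08 and -0.82 ± 0.16 in the authors' deposited table. Higher values were given in the authors' deposited table for 3 genes, the elongase ELOVL6 (0.43 ± 0.12), the acyl-CoA synthetase ACSL1 (0.38 ± 0.11) and the fatty acid transporter CD36 (0.36 ± 0.13).

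Of 37 symbols for genes acting on lipoproteins after secretion, 6 were listed, with a median of -0.30. Of these 4 were lower and 2 higher, beside 55.3% lower among all listed genes. ASGR1, a subunit of the asialoglycoprotein receptor, was at -0.54 ± 0.11 in the authors' deposited table. LIPC, hepatic lipase, was at -0.43 ± 0.11 in the authors' deposited table, and ABCA1, which loads lipid onto APOA1, was at -0.30 ± 0.07. FURIN (0.60 ± 0.13), a protease that cleaves many secreted precursors, and HSPG2 (0.39 ± 0.11), the heparan sulfate proteoglycan perlecan, were higher in the authors' deposited table. ABCA1 was named after its value had been seen.

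Of the transcription factors with known roles at apolipoprotein and MTTP genes, 12 of 35 symbols were listed, with a median of -0.56. Of these 10 were lower and 2 higher, beside 55.3% lower among all listed genes. This list does not separate activators from repressors, and an effect of any factor on the 11 genes was not tested. NR1H4, the bile acid receptor, had the largest fall, -1.31 ± 0.12 in the authors' deposited table, from 580 to 232 normalized counts. MLXIPL, the carbohydrate-response factor, went from 549 to 288 normalized counts computed from the authors' deposited table. ONECUT2 and CEBPA were both at -0.69 in the authors' deposited table, with SEs of 0.13 and 0.11. HNF4A had 3304 and 2385 normalized counts from the authors' deposited table, a log2 fold change of -0.47 ± 0.09. FOXO3 (0.75 ± 0.11), a forkhead factor, and JUN (0.53 ± 0.13), a subunit of AP-1, were higher in the authors' deposited table. CEBPA and HNF4A were named after their values had been seen.

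Smaller lists held few listed genes. The lipocalins, the protein family of APOM, had 3 of 10 symbols listed, all lower, with a median of -0.55: RBP4 (-0.67 ± 0.07), the retinol carrier, C8G (-0.55 ± 0.20) and ORM2 (-0.22 ± 0.07) in the authors' deposited table. Of 8 symbols of the APOB RNA editing complex, A1CF, its RNA-binding cofactor, was listed at -0.33 ± 0.10 in the authors' deposited table. No symbol was listed out of 17 for sphingosine 1-phosphate handling or out of 11 for lipoprotein proteins outside the name rule. Over all 8 pathway lists, 59 genes were listed, 51 lower and 8 higher, with a median of -0.42, beside 55.3% lower among all listed genes. The lists were chosen with earlier results of these data known and were not tested.

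**Figure D4:**
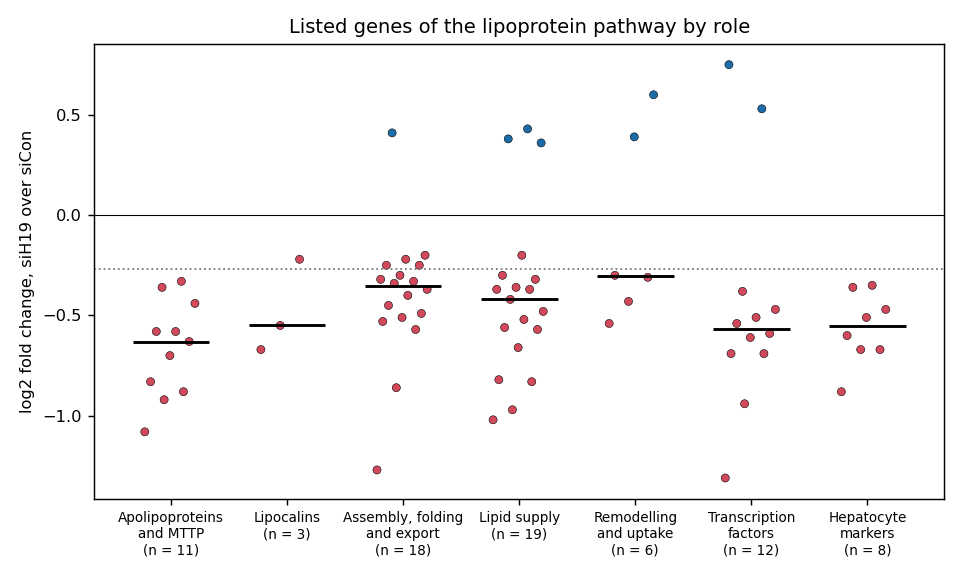
Log2 fold change, siH19 over siCon, of listed genes by role (red lower, blue higher; n is the number listed); black bars are medians and the dotted line is the median of all listed genes (-0.27). The medians run from -0.30 for remodelling and uptake to -0.63 for the apolipoproteins and MTTP, and the 4 lists with blue points hold 8 higher genes in all.

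Markers of the cell type moved with these genes. Of 10 hepatocyte markers 8 were listed and all were lower, beside 55.3% of all listed genes. Their median was -0.55, and their summed level went from 202474 to 138267 normalized counts. RBP4 and HNF4A, which are among them, were counted in other lists as well. The listed markers included TTR (-0.88 ± 0.09), ALB (-0.67 ± 0.07) and SERPINA1 (-0.60 ± 0.08) in the authors' deposited table. The smallest falls among them were those of FGB (-0.36 ± 0.08) and AFP (-0.35 ± 0.07) in the authors' deposited table. The cells thus carried hepatocyte transcripts in both groups. Fewer cells with hepatocyte expression and less RNA per cell cannot be told apart in bulk RNA. Of the bile duct and progenitor markers 2 of 6 were listed, both higher, CD24 (1.20 ± 0.09) and SPP1 (0.53 ± 0.09) in the authors' deposited table, and their summed level went from 6883 to 10587 normalized counts. Of 6 intestinal markers VIL1 was listed, at 0.29 ± 0.11 in the authors' deposited table, from 2778 to 3397 normalized counts.

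Of 6 stellate cell markers ACTA2 was listed, from 861 to 484 normalized counts, and of 6 endothelial markers LYVE1, from 105 to 53 normalized counts, both computed from the authors' deposited table. The listed blood and Kupffer cell markers were CD68 and LYZ, 2 of 6, whose summed level went from 26484 to 16759 normalized counts. HepG2 is a single cell line, and the part of any of these markers in the apolipoprotein result was not tested.

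The listed genes closest to each member were sought by fold change, among those with a mean count within 2-fold. Since there are only 2 group values per gene, many genes match equally well. For MTTP, out of 701 candidates, they were SERPINA11, SLC1A2 and TTR, each at -0.88 in the authors' deposited table. APOM was matched by HIPK1 (-1.09), METTL7A (-1.10) and MPC1 (-1.06) in the authors' deposited table, out of 804 candidates. APOA2 had 15 candidates, of which SERPINA1 (-0.60), LYZ (-0.64) and ALB (-0.67) were closest in the authors' deposited table. APOB had no candidate, since no other listed gene reached a mean count within 2-fold of its own.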

How the data were processed

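RNA from HepG2 cells was sequenced in 3 siCon and 3 siH19 libraries as paired reads of 76 cycles, per the labels' protocols. STAR 2.5.0a, Cufflinks 2.2.1, DESeq2 1.0.0 and build hg19 are named, without roles, per the submitters' processing notes. The deposited table gives log2 counts per group, a log2 fold change and its SE, a mean count, which is a normalized signal, and a q-value (adjusted p-value), per the file headers. The q-values deposited by the authors are all under 0.05 (largest 0.0498), and those written as 0 are below 1e-06. The deposited fold change equals siH19 minus siCon within 0.01. Columns from samples outside the series numbered 0.

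Normalized counts per group were computed as powers of the log2 counts, with Python 3.11.15 and pandas 2.3.3. No test of single genes was added, because the table holds no value per library, where the design had foreseen a count model if it did. The scripts were tested on simulated data. The genes and gene lists were chosen with earlier results of these data known. Named genes are all 11, the 4 largest absolute changes in each list, members against their list's majority and the 3 closest genes per member, printed for some; of markers and closest genes only part is given. Some genes the rule names are not reported here and were left out of the lists.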

Additional observations from a re-analysis of the deposited data

How the results depend on the processing

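Fold changes recomputed from the group values, or with a pseudocount of 1 or 10, shifted by at most 0.09 (log2, APOF), within the SE for each of the 33 values; these settings cannot change a direction. The count of lower genes was 9 at an adjusted p under 0.01, 10 at a mean count of at least 100 and 8 at or above the median mean count. It was 6 among changes of at least 1.5-fold. It was also 6 without genes that overlap another annotated gene, an alternative chosen after seeing the data. All of these settings leave fewer genes to count. None of them could give a higher gene, since all 11 genes were lower to begin with. Of the 59 pathway genes, the 51 lower became 14 of 16 at 1.5-fold, and lay between 36 and 51 under the other settings. Of 25 recounts of single lists 17 stayed within 1.5 times and 8 did not. Leaving out libraries and other normalizations were not run, as the table has no value per library. No paired analysis was possible because the columns carry no replicate. Depth per library is unknown, so counting error was judged from normalized counts alone.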
